A study of Mus musculus with 16 samples.

Results

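The 10 genes described here belong to the formation and work of osteoclasts: Tnfrsf11a, Nfatc1, Oscar, Dcstamp, Ocstamp, Car2, Ostm1, Acp5, Mmp9 and Spp1. They were picked by symbol out of 52636 gene names. Of the 10, 7 lay above the detection floor and were tested among 11044 genes. Acp5, Ocstamp and Oscar were listed at 0 in all 16 libraries.

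Osteoclasts are the bone-resorbing cells that form when precursors of the macrophage lineage fuse. RANK ligand binds its receptor RANK on the precursor, which activates NF-κB and AP-1, and these, with calcium signals from costimulatory receptors, raise NFATc1, the transcription factor that drives the osteoclast program. NFATc1 targets then fuse the cells, acidify the space beneath them and digest the matrix.

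The cells were RAW 264.7, an established mouse macrophage-like line that is often used as an osteoclast precursor. All of them were transfected with siRNA at 25 nM, either a control siRNA or a single siRNA product against Cebpb, which encodes the transcription factor C/EBPβ. After 24 h they received isoproterenol, an agonist of β-adrenergic receptors, or no agent. Each of the 4 groups held 4 libraries, 2 replicates from each of 2 experiments. The libraries were thus control siRNA, Cebpb siRNA, control siRNA with isoproterenol and Cebpb siRNA with isoproterenol, and the title poses the question of C/EBPβ control over the genes of alternative (M2) activation. The labels name no RANK ligand among the treatments. Tnfsf11, the gene of RANK ligand, and Tnfrsf11b, the gene of its decoy receptor, were too low to be tested.

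Levels are given in RPM, the reads of a gene in each 1 M (10⁶) reads of its library, from 3′ end sequencing. Such reads do not add up along a transcript, so RPM can be set side by side between genes. Total depth was 9.42 to 25.17 M reads per library (5.81 to 15.9 M on genes), and the deposited values list anything at or under 1 RPM as 0, a floor of 9 to 25 reads. Cebpb siRNA left 30.4% of the Cebpb level of control cells in the absence of isoproterenol, and 30.3% in its presence (log2 −1.72 ± 0.20 SE in each, limma adjusted p = 4.94e-07 and 4.57e-07). All 6 macrophage markers examined (Csf1r, Adgre1, Cd68, Lyz2, Itgam and Spi1) were above the floor in every library, with a summed level of 1137 to 1514 RPM in control siRNA libraries, 1279 to 1426 with Cebpb siRNA, 1651 to 1943 with control siRNA and isoproterenol, and 1346 to 1678 with both. The 6 markers of mature osteoclasts (Calcr, Ctsk, Atp6v0d2, Itgb3, Siglec15 and Slc9b2) were listed at 0 in all 16 libraries, as were the 6 markers of osteoblasts and stroma and the 3 of B cells. Of 3 T cell markers, Cd3e and Cd3g were at 0 and Lck lay at 2.40 to 6.20 RPM.

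Of the 7 tested osteoclast genes, 6 changed with Cebpb siRNA without isoproterenol and 5 with it. Without isoproterenol Car2, Dcstamp, Mmp9 and Nfatc1 rose, Ostm1 and Spp1 fell, and Tnfrsf11a did not pass the test. With isoproterenol Car2, Dcstamp and Nfatc1 rose, Ostm1 and Spp1 fell, and Mmp9 and Tnfrsf11a did not pass. Calls throughout are a limma adjusted p under 0.05 over all 11044 genes. Changes of this siRNA were widespread: 31.5% of the genes tested were called higher and 29.8% lower without isoproterenol, and 32.1% and 30.0% with it, so the counts of 4 and 2 of 7, and of 3 and 2 of 7, lay near the background. The median log2 fold change of the 7 was 0.51 without isoproterenol and 0.16 with it, against 0.02 over all genes in each. Of all 11044 genes, 5% had a log2 fold change above 0.96 without isoproterenol, and Car2 and Dcstamp were among them. Read on the values as deposited, without scaling between libraries, 2726 genes were higher and 3917 lower without isoproterenol, against 3482 and 3294 after scaling, and none of the called osteoclast genes changed direction or lost its call.

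**Figure D1:**
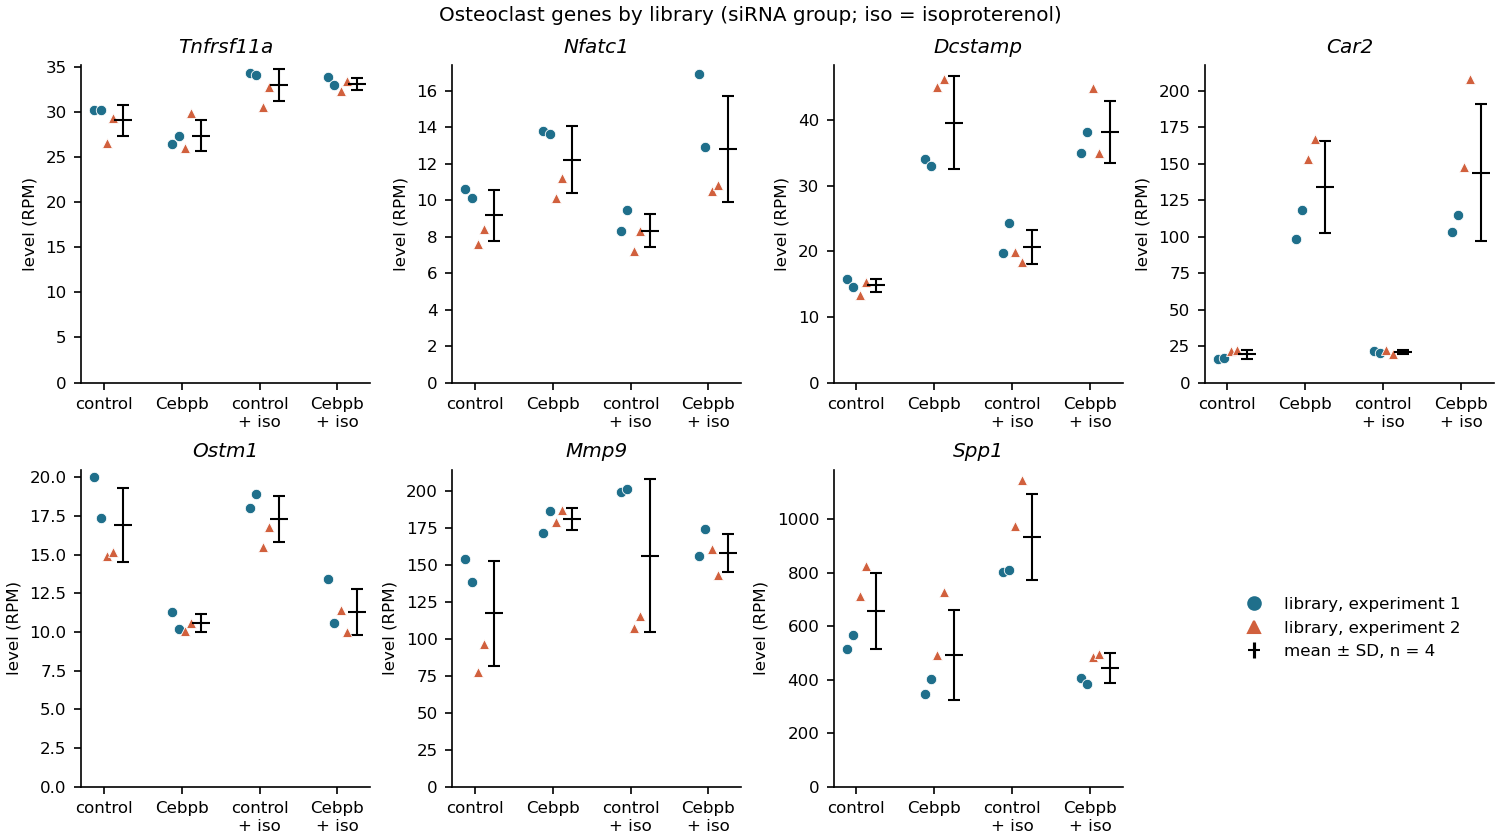
Level in RPM (vertical axis from 0) of the 7 detected osteoclast genes in each of the 16 libraries, by siRNA group without and with isoproterenol (iso), with circles for experiment 1, triangles for experiment 2 and bars for mean ± SD of 4 libraries. Car2 and Dcstamp libraries with Cebpb siRNA all lie above those with control siRNA, and the Mmp9 control libraries fall into an upper pair from experiment 1 and a lower pair from experiment 2.

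The receptor and its downstream transcription factor behaved differently. Tnfrsf11a (ENSMUSG00000026321.7, GRCm38 chromosome 1, 105780718 to 105847981, plus strand) encodes RANK, the receptor through which RANK ligand acts. Its levels, in the order experiment 1 replicates 1 and 2 and experiment 2 replicates 1 and 2, were 30.2, 30.2, 26.6 and 29.3 RPM with control siRNA and 26.5, 27.3, 26.0 and 29.9 with Cebpb siRNA. With isoproterenol they were 34.3, 34.1, 30.6 and 32.8 RPM with control siRNA and 33.9, 33.0, 32.3 and 33.4 with Cebpb siRNA. The siRNA groups overlapped both without and with isoproterenol, and the whole range of the 16 libraries ran from 26.0 to 34.3 RPM. The log2 fold change with Cebpb siRNA was 0.01 ± 0.07 (SE) without isoproterenol, with a 95% confidence interval of −0.14 to 0.16 (limma adjusted p = 0.901), and 0.08 ± 0.07, −0.07 to 0.24, with it (adjusted p = 0.344). A change of RANK mRNA larger than those bounds is outside the interval of these data, and a smaller one is not settled.

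Nfatc1 (ENSMUSG00000033016.16, chromosome 18, 80606205 to 80713071, minus strand), which encodes NFATc1, was the lowest of the detected osteoclast genes in mean RPM in both control siRNA groups and had 106 to 293 reads per library. Its levels in the same library order were 10.6, 10.1, 7.59 and 8.40 RPM with control siRNA and 13.8, 13.6, 10.1 and 11.2 with Cebpb siRNA. Within each experiment every Cebpb siRNA library was above every control library, although the groups overlapped across experiments because experiment 2 was lower in general (experiment 2 minus experiment 1, log2 −0.35 ± 0.07, adjusted p = 9.01e-04). The change was log2 0.51 ± 0.10 without isoproterenol (1.42-fold, adjusted p = 2.33e-04), with 0.46 and 0.55 in experiments 1 and 2. With isoproterenol the control libraries were at 8.31, 9.44, 7.21 and 8.28 RPM and the Cebpb siRNA libraries at 16.9, 12.9, 10.5 and 10.8. These groups did not overlap, and the change was 0.67 ± 0.10 (1.59-fold, adjusted p = 7.88e-06), with 0.79 and 0.55 in the experiments. In these bulk samples a larger share of cells with a transcript and more transcript per cell cannot be told apart, here or for the genes that follow. Oscar (ENSMUSG00000054594.13, chromosome 7, 3609813 to 3616157, minus strand), a costimulatory receptor that signals through the Fc receptor γ chain, was at or under 1 RPM in all 16 libraries.

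Among fusion genes, Dcstamp (ENSMUSG00000022303.9, chromosome 15, 39745930 to 39760938, plus strand) encodes DC-STAMP, a multi-pass membrane protein that precursors need to fuse. Its levels were 15.8, 14.6, 13.4 and 15.3 RPM with control siRNA and 34.0, 33.0, 45.0 and 46.3 with Cebpb siRNA. The groups did not overlap, and the lowest Cebpb siRNA library stood above the highest control library. Dcstamp rose 2.83-fold (log2 1.50 ± 0.12, adjusted p = 2.70e-10), the 123rd largest increase, with log2 1.19 and 1.81 in experiments 1 and 2. With isoproterenol the levels were 19.7, 24.3, 19.9 and 18.4 RPM with control siRNA and 34.9, 38.1, 44.9 and 34.9 with Cebpb siRNA, again without overlap. The rise was 1.95-fold (log2 0.96 ± 0.12, adjusted p = 2.44e-07). Ocstamp (ENSMUSG00000027670.4, chromosome 2, 165393760 to 165400405, minus strand), its relative in cell fusion, was listed at 0 in all 16 libraries.

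The proton supply gene changed most. Car2 (ENSMUSG00000027562.12, chromosome 3, 14886273 to 14900770, plus strand) encodes carbonic anhydrase 2, which supplies protons for acidifying the resorption space. Its levels were 16.2, 17.0, 21.9 and 22.4 RPM with control siRNA and 98.6, 118, 153 and 167 with Cebpb siRNA. Every Cebpb siRNA library exceeded every control library by several fold. In 3 of the 4 groups both libraries of experiment 2 were above both of experiment 1, the exception being control siRNA with isoproterenol (log2 0.41 ± 0.09 over all groups, adjusted p = 0.00129). Car2 rose 7.32-fold (log2 2.87 ± 0.13, adjusted p = 1.62e-13), the 6th largest increase among the 11044 genes, with 2.75 and 2.99 in the experiments. With isoproterenol the levels were 21.7, 20.3, 22.4 and 19.3 RPM with control siRNA and 103, 115, 148 and 208 with Cebpb siRNA. This rise was 6.96-fold (log2 2.80 ± 0.13, adjusted p = 1.75e-13), also the 6th largest, with 2.43 and 3.16 in the experiments.

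Ostm1 (ENSMUSG00000038280.12, chromosome 10, 42583822 to 42702459, plus strand), the partner subunit of the lysosomal and ruffled-border chloride-proton exchanger ClC-7, moved the other way. Its levels were 20.0, 17.4, 14.9 and 15.2 RPM with control siRNA and 11.3, 10.2, 10.1 and 10.6 with Cebpb siRNA. With isoproterenol they were 18.0, 18.9, 15.5 and 16.8 RPM with control siRNA and 13.4, 10.6, 11.4 and 9.98 with Cebpb siRNA. In neither setting did the groups overlap. Ostm1 fell by 0.57 on the log2 scale without isoproterenol (SE 0.10, adjusted p = 3.84e-05) and by 0.54 with it (SE 0.10, adjusted p = 6.89e-05), and both experiments gave the same sign.

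The 3′ UTR of Ostm1 is shown because it holds a 7-base word that occurs in the Cebpb transcript and went with lower levels in Cebpb siRNA libraries when these same data were searched earlier. Of 10116 tested genes with an annotated 3′ UTR, 14.9% hold AACTTGT in the longest form. In cells not given isoproterenol the siRNA changed the 1510 genes with the word by a median log2 of −0.23 and the 8606 without it by 0.05, and 49.3% and 28.0% of them were called lower. With isoproterenol the medians were −0.25 and 0.05. A longer 3′ UTR is more likely to hold any given word, and these values were not adjusted for length. The median length was 1198 bases over these genes, against 1921 for Ostm1 and 3115 for Tnfrsf11a. Of the 10 osteoclast genes 2 hold the word once each, Ostm1, which fell, and Tnfrsf11a, which did not pass the test. The word is absent from the longest 3′ UTR of Spp1, which fell. The sequences below are from GENCODE vM21 transcripts, 5′ to 3′, at chr10:42701391-42701397 for Ostm1 and chr1:105846609-105846615 for Tnfrsf11a (the word alone, plus strand, GRCm38), with the word in capitals. An effect of the siRNA on other transcripts through this word was not tested. With a single siRNA product against Cebpb, loss of C/EBPβ and any other effect of that siRNA cannot be told apart in any of the siRNA comparisons.
Ostm1: tggcaacctgtAACTTGTtagtagttcaag
Tnfrsf11a: atgcatgccttAACTTGTctaccaggacgt

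Acp5 (ENSMUSG00000001348.15, chromosome 9, 22126727 to 22135711, minus strand), which encodes tartrate-resistant acid phosphatase, the classical histochemical stain of osteoclasts, was at or under 1 RPM in all 16 libraries. Mmp9 (ENSMUSG00000017737.2, chromosome 2, 164940780 to 164955850, plus strand) encodes gelatinase B, a matrix metalloproteinase that osteoclasts secrete. Its levels were 154, 138, 77.8 and 96.7 RPM with control siRNA and 171, 186, 179 and 187 with Cebpb siRNA. The Cebpb siRNA libraries were close to each other, 181 ± 7.33 RPM (SD, n = 4), while the control libraries of experiment 2 were well under those of experiment 1. The groups did not overlap, and Mmp9 rose by log2 0.78 ± 0.15 (1.71-fold, adjusted p = 2.23e-04).

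With isoproterenol Mmp9 was at 199, 201, 107 and 115 RPM with control siRNA and at 156, 174, 160.2 and 143 with Cebpb siRNA. Control libraries lay above the Cebpb siRNA libraries in experiment 1 and below them in experiment 2. The pooled change was 0.16 ± 0.15, with a 95% confidence interval of −0.16 to 0.48 (adjusted p = 0.381). The effect of the siRNA on Mmp9 differed between the experiments. It was log2 0.34 in experiment 1 and 1.21 in experiment 2 without isoproterenol, a difference of 0.87 ± 0.13 (limma adjusted p = 0.00673). It was −0.22 and 0.54 with isoproterenol, a difference of 0.76 ± 0.13 (adjusted p = 0.0321). Differences of this kind were called for 0.127% of genes without isoproterenol and 0.0905% with it. Mmp9 was the only tested osteoclast gene called in either, and the direction of its change with isoproterenol was that of the experiment examined.

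**Figure D2:**
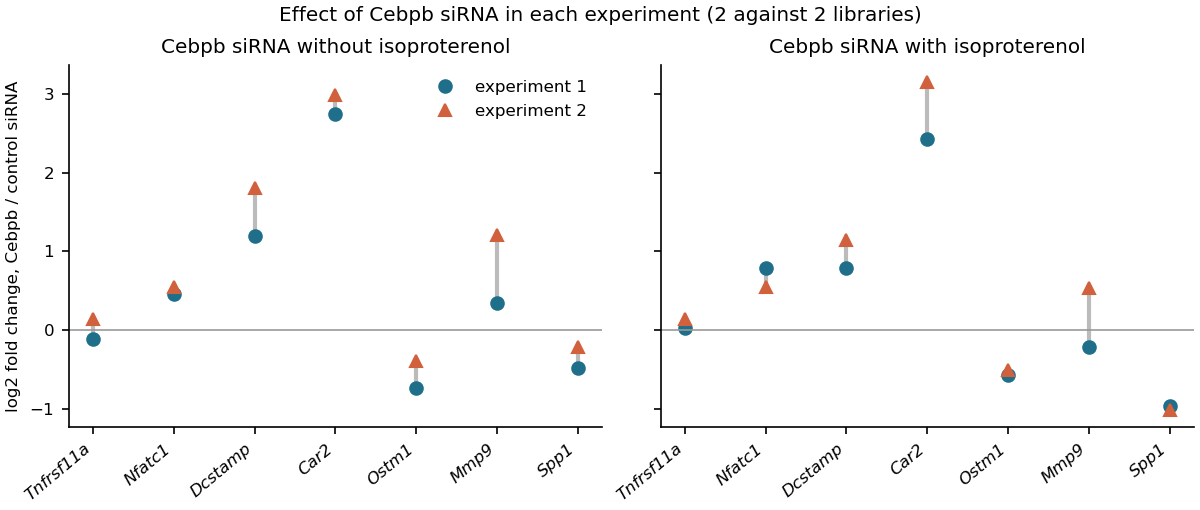
Log2 fold change of Cebpb siRNA against control siRNA (vertical axis) for each detected osteoclast gene in experiment 1 (circles) and experiment 2 (triangles), each from 2 against 2 libraries, without isoproterenol on the left and with it on the right. Mmp9 is at 0.34 and 1.21 on the left and at −0.22 and 0.54 on the right, and Car2 is above 2.4 in all 4 cases.

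Spp1 (ENSMUSG00000029304.14, chromosome 5, 104435118 to 104441050, plus strand) encodes osteopontin, a secreted phosphoprotein of bone matrix that macrophages and osteoclasts also make and that binds integrins. It was the highest of the 10 in RPM, with 5596 to 21424 reads per library. Its levels were 514, 568, 713 and 826 RPM with control siRNA and 347, 401, 492 and 729 with Cebpb siRNA. The groups overlapped, and within each group experiment 2 was higher (log2 0.47 ± 0.07 over all groups, adjusted p = 6.33e-05). Spp1 fell by 0.35 on the log2 scale (SE 0.10, adjusted p = 0.00652). This call was lost, at adjusted p = 0.15, without a term for the experiment, and in experiment 2 alone the change was −0.22 (adjusted p = 0.32). With isoproterenol it was at 804, 811, 973 and 1144 RPM with control siRNA and at 408, 384, 485 and 496 with Cebpb siRNA. These groups did not overlap, and Spp1 fell by 0.99 on the log2 scale (SE 0.10, adjusted p = 5.42e-08), with −0.97 and −1.02 in the experiments.

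Spp1 and Ostm1 were the only tested osteoclast genes that fell, and the 250 bases before their RefSeq start sites, 1 for Ostm1 and 2 for Spp1, are shown with motif matches found in them. The sequences are from RefSeq (GRCm38.p6), which held a promoter for 5 of the 10 genes (Ostm1, Acp5, Tnfrsf11a, Oscar and Spp1). Capitals mark matches, on either strand, to TTNCNNAA (C/EBP), TGACG (cAMP response element core), GGAAGT (ETS/PU.1), ACCACA (RUNX) and TGANTCA (AP-1), where N is any base. The Ostm1 sequence is chr10:42678666-42678915, and the Spp1 sequences are chr5:104434861-104435110 (site 1) and chr5:104435942-104436191 (site 2), all on the plus strand and 5′ to 3′. Ostm1 holds a TGACG at position −38 from the start. Site 1 of Spp1 holds an ACCACA at −128 and a GGAAGT at −111 and no C/EBP match, and site 2 holds C/EBP matches at −156 and −15. The site 2 sequence lies inside the annotated Spp1 gene, which starts at 104435118, with 0 bases in its annotated exons. The Ostm1 sequence likewise lies inside the annotated Ostm1 gene, which runs from 42583822 to 42702459, with 0 bases in its annotated exons. Not in capitals are the NFAT word GGAAA, found at −157 in site 1 and at −202 in site 2 of Spp1 and not in the Ostm1 sequence, and the E-box CANNTG, found in all 3 sequences. Of 32851 RefSeq promoters of this length, 36.8% hold a C/EBP match, 17.8% TGACG, 19.7% GGAAGT, 14.0% ACCACA, 6.7% TGANTCA, 55.6% GGAAA and 66.2% CANNTG. These shares are per promoter, and Spp1 had 2.
Ostm1: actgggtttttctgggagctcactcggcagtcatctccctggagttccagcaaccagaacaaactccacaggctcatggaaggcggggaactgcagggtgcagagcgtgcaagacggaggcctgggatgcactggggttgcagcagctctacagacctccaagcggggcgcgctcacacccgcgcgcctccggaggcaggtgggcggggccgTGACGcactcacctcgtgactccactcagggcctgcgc
Spp1 site 1: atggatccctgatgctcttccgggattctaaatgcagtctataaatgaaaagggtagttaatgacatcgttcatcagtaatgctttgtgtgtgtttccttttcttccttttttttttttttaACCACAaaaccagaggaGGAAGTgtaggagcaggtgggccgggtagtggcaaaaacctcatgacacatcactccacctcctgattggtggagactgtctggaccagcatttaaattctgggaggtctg
Spp1 site 2: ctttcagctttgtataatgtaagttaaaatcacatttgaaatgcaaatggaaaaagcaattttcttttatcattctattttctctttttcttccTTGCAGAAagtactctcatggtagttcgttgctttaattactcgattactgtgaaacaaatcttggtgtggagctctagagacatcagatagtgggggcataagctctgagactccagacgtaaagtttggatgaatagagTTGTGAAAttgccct

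Fewer of these genes were called for isoproterenol than for the siRNA. In control siRNA cells Spp1 had 655 ± 142 RPM without and 933 ± 161 RPM with isoproterenol (SD, n = 4 each), a rise of 1.40-fold (log2 0.49 ± 0.10, adjusted p = 0.0153), with 0.53 and 0.44 in experiments 1 and 2. This was 1 of 7 osteoclast genes called higher by limma and none lower, against 1.17% of all genes higher and 0.453% lower. At an unadjusted p under 0.05 were 3 of the 7, Mmp9, Dcstamp and Spp1, all higher and none lower. That level was reached in either direction by 1215 of all 11044 genes. Leaving out any 1 of 5 libraries moved the adjusted p of Spp1 past the threshold, to 0.0601 to 0.0705. These were experiment 1 control replicate 1, experiment 2 control replicate 1, both experiment 1 isoproterenol replicates of control siRNA, and experiment 2 isoproterenol replicate 2 of control siRNA. The summed macrophage markers were also higher with isoproterenol in control siRNA cells, at 1651 to 1943 against 1137 to 1514 RPM without overlap, mostly through Lyz2 (lysozyme), which went from 656 to 1109.7 RPM (log2 0.75 ± 0.06, adjusted p = 1.87e-07). Itgam also rose (0.34 ± 0.07), and Csf1r (−0.04 ± 0.08), Cd68 (0.06 ± 0.05), Spi1 (0.03 ± 0.08) and Adgre1 (0.39 ± 0.15) did not pass. In Cebpb siRNA cells Lyz2 was at 632 RPM without and 664 RPM with isoproterenol. The part of these markers in the change of Spp1 was not tested. Dcstamp went from 14.8 ± 1.04 to 20.6 ± 2.59 RPM without overlap between the groups (log2 0.44 ± 0.12, adjusted p = 0.0609), which did not pass. Mmp9 (0.37 ± 0.15, adjusted p = 0.336), Tnfrsf11a (0.15 ± 0.07, adjusted p = 0.471), Car2 (0.09 ± 0.13), Ostm1 (0.01 ± 0.10) and Nfatc1 (−0.17 ± 0.10) did not pass either.

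In Cebpb siRNA cells limma called none of the 7 for isoproterenol, against 2.83% of all genes higher and 2.64% lower. At an unadjusted p under 0.05, 1 of the 7 passed, as did 19.4% of all genes. It was Tnfrsf11a, which went from 27.4 ± 1.74 to 33.1 ± 0.703 RPM without overlap between groups (log2 0.22 ± 0.07, adjusted p = 0.0919). Spp1 was at 493 ± 169 RPM without and 443 ± 55.5 with isoproterenol in these cells (log2 −0.16 ± 0.10, 95% confidence interval −0.38 to 0.06).

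The difference between the isoproterenol effects in Cebpb siRNA and control siRNA cells was called by limma for none of the 7, against 0.109% of all genes higher and 0.118% lower. Unadjusted p was under 0.05 for 3 of the 7, and 6.4% of all genes reached that level. Spp1 had a difference of −0.64 ± 0.15 (unadjusted p = 2.98e-04, adjusted p = 0.0891), Dcstamp of −0.54 ± 0.16 (0.00362 and 0.335) and Mmp9 of −0.62 ± 0.22 (0.0101 and 0.499). For these 3 genes a smaller isoproterenol effect with Cebpb siRNA was therefore not established over all genes. The call for Spp1 turned on single libraries: its adjusted p was 0.048 without experiment 1 Cebpb siRNA replicate 1, and 0.0481 and 0.00798 without experiment 2 Cebpb siRNA replicates 1 and 2. The 95% confidence interval was −0.15 to 0.29 for Tnfrsf11a, −0.44 to 0.30 for Car2 and −0.27 to 0.32 for Ostm1.

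**Figure D3:**
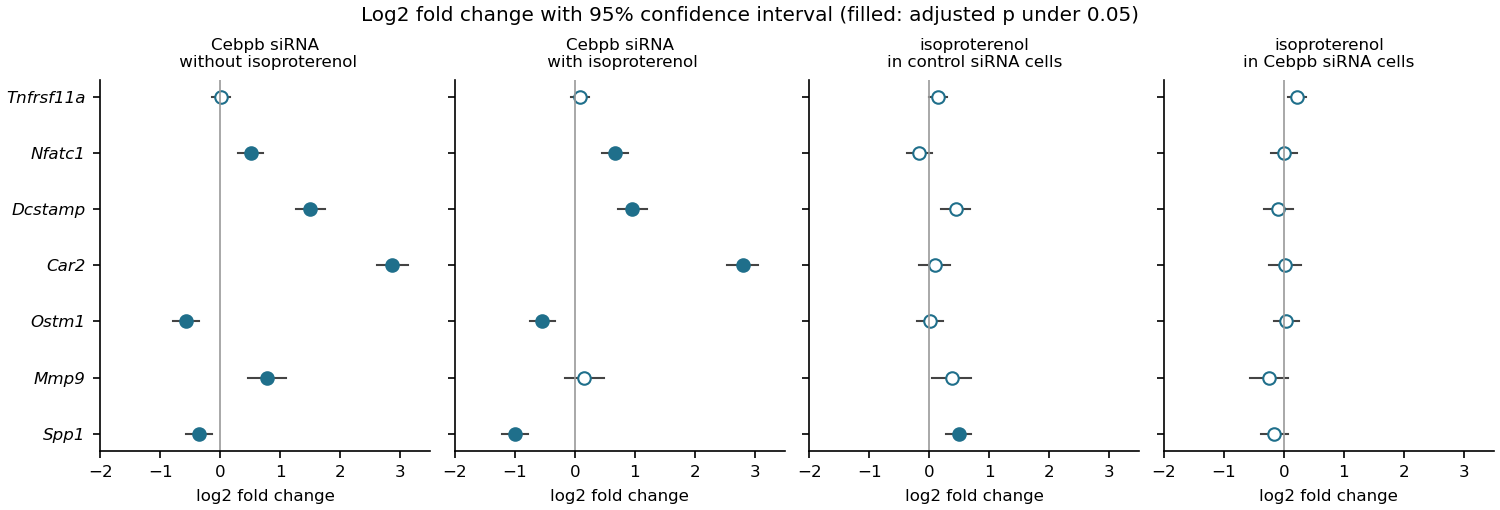
Log2 fold change (horizontal axis) with its 95% confidence interval (line) for the 7 detected osteoclast genes in the 4 comparisons, with filled points for a limma adjusted p under 0.05. Car2 is at 2.87 and 2.80 in the 2 siRNA panels, and of the isoproterenol panels Spp1 in control siRNA cells is the only filled point, at 0.49.

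The experiments differed in level for 32.9% of all genes, and 4 of the 7 osteoclast genes were called. Car2 and Spp1 were higher in experiment 2, and Nfatc1 and Mmp9 lower (Mmp9 by log2 −0.42 ± 0.11, adjusted p = 0.00553).

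Across the 16 libraries, with each experiment's mean removed, Car2 and Dcstamp had a Pearson r of 0.94, Car2 and Nfatc1 of 0.89, and Car2 and Ostm1 of −0.92. Tnfrsf11a stood apart, with r of −0.01 to 0.39 against the other 6. These are descriptions over libraries that share the siRNA groups. Among 9748 genes above the floor in all libraries, the genes whose pattern was most like each member's were Cyfip1 (0.994) and Traf1 (0.993) for Car2, Il1rn (0.979) and Sdc4 (0.978) for Dcstamp, and Nrp2 (0.918) and 3110043O21Rik (0.895) for Mmp9. For Nfatc1 they were Klhl24 (0.965) and Rnf166 (0.958), for Ostm1 Dcbld2 (0.971) and Ppp1r15a (0.967), for Spp1 Zranb3 (0.943) and Chuk (0.936), and for Tnfrsf11a Ttc39b (0.902) and Dusp5 (0.891).

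The other genes of the osteoclast pathway were counted in 6 lists that leave out the 10 genes above, 76 tested genes in all. With Cebpb siRNA 42 rose and 14 fell without isoproterenol, and 45 rose and 16 fell with it. Over all genes tested the shares were 31.5% higher and 29.8% lower, and 32.1% and 30.0%, which also stand behind the counts of each list. Of 17 tested genes of RANK signalling, 10 rose and 1 fell without isoproterenol (9 and 3 on values as deposited). With isoproterenol 10 rose and 2 fell (9 and 2 on values as deposited). The AP-1 subunits Fos and Junb rose by log2 1.72 ± 0.11 and 1.18 ± 0.06 without isoproterenol, and the non-canonical NF-κB subunit Relb by 1.25 ± 0.11. Fos went from 9.04 to 27.8 RPM on average. Of 12 costimulatory and calcium signalling genes, 6 rose and 4 fell without isoproterenol and 7 and 3 did with it (5 and 3 on values as deposited). Ppp3ca, a catalytic subunit of calcineurin, the phosphatase of NFAT, rose by 0.92 ± 0.05 and 0.96 ± 0.05. The other catalytic subunit in the list, Ppp3cb, named after its values were seen, fell (log2 −0.23 and −0.38), and Trem2, a receptor that signals through DAP12, fell (log2 −0.56 and −0.38). Fcer1g (log2 0.60 and 0.57) and Blnk (0.79 and 0.73), of the same list, rose.

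Of 11 osteoclast transcription factors 5 rose and 2 fell without isoproterenol, and 6 and 2 with it. This list was not split into factors that promote and factors that hold back osteoclast formation. Id1 (log2 0.97 and 0.73) and Id2 (0.79 and 0.92) were among those that rose. Prdm1, the repressor Blimp-1 that removes inhibitors of osteoclast formation, rose by log2 1.38 ± 0.19 and 1.65 ± 0.19, from a low level of 2.45 RPM, and Ppargc1b, a coactivator of mitochondrial genes, fell (log2 −1.08 and −1.03). Of 11 tested inhibitors of osteoclast formation 8 rose and 1 fell without isoproterenol and 8 and 2 did with it. Cyld, a deubiquitinase that restrains NF-κB signalling, rose by 0.47 ± 0.06 and 0.60 ± 0.06, and Nfkbia, which encodes the NF-κB inhibitor IκBα, by 0.62 ± 0.06 and 0.29 ± 0.06. Irf8, a transcription factor that holds back NFATc1, fell (log2 −0.69 and −0.74). Bcl6, of the same list and named after its values were seen, rose (log2 0.60 and 0.59). Genes that promote and genes that hold back osteoclast formation were thus both among those that rose in the same libraries.

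All 7 tested genes listed under cell fusion rose in both siRNA comparisons (6 and 5 of 7 on values as deposited). Their median was log2 0.61 without isoproterenol, and Atp6v0d2 and Itgb3 were at the floor. The list does not separate genes by their role in fusion, and cell fusion was not measured. Dock5, an activator of the GTPase Rac, rose by 1.33 ± 0.12, the fusion receptor Cd47 by 0.78 ± 0.07, and the tetraspanins Cd9 and Cd81 by 0.61 ± 0.10 and 0.55 ± 0.06. The 18 tested genes of the resorption machinery were mixed, with 6 higher and 6 lower without isoproterenol and 7 and 7 with it. Among those higher with isoproterenol was Pstpip2, at 0 RPM in both control siRNA groups and at 1.60 RPM on average with Cebpb siRNA and isoproterenol. Pstpip2 passed the floor filter only through Cebpb siRNA libraries, which fixed its direction in advance. Snx10, a sorting nexin of endosomes and the ruffled border, fell (log2 −1.96 and −2.18), from 56.6 to 13.7 RPM without isoproterenol. Atp6v1a, a catalytic subunit of the proton pump, fell to 50.2% and 47.2% of the control siRNA level, while Atp6ap1, an accessory subunit of the same pump, rose by 0.59 ± 0.07 and 0.56 ± 0.07. Of 10 macrophage and CSF1 axis genes, 5 rose and 4 fell without isoproterenol, and 4 and 5 with it. Csf1, the macrophage growth factor, fell (log2 −1.72 and −2.16), as did Cx3cr1, the fractalkine receptor (−2.32 and −2.58). Csf1r (0.49 and 0.63) and Itgam (0.46 and 0.46), named here after their values were seen, rose.

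**Figure D4:**
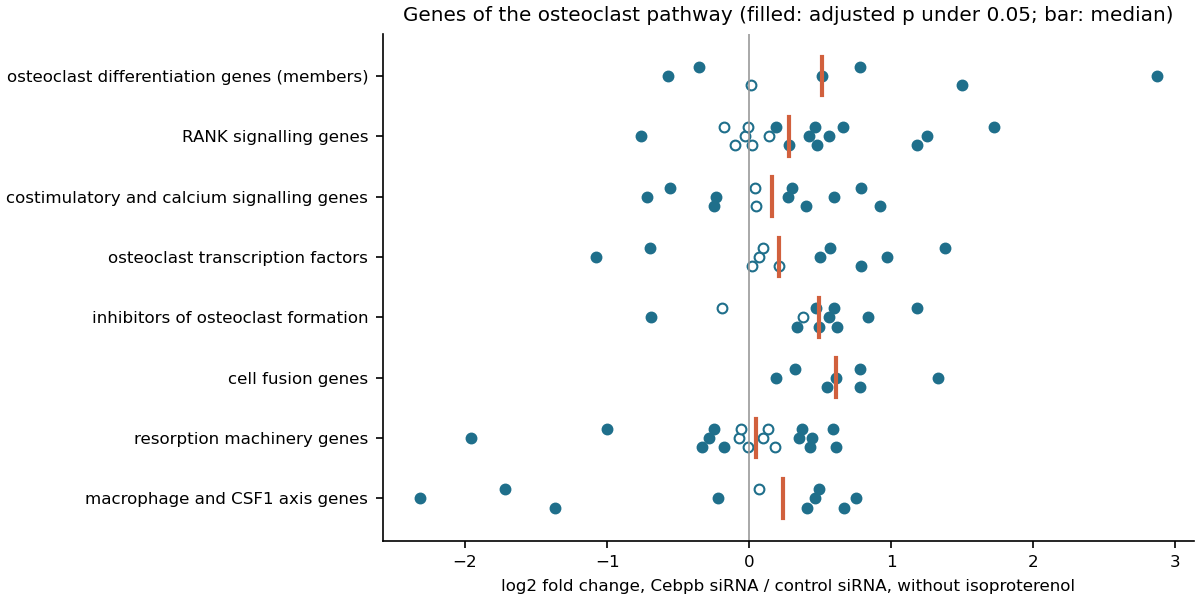
Log2 fold change of Cebpb siRNA against control siRNA without isoproterenol (horizontal axis) for each tested gene of the osteoclast lists. The 7 detected osteoclast genes are the top row, and the macrophage and CSF1 axis genes are the bottom row. Filled points mark a limma adjusted p under 0.05, and a bar marks the median. All 7 genes listed under cell fusion are filled and right of 0, and the resorption genes spread to −1.96 (Snx10).

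In response to isoproterenol 5 of the 76 list genes rose in control siRNA cells and limma called none lower (1 at an unadjusted p under 0.05), against 1.17% and 0.453% of all genes. Among them were Fos (log2 1.44 ± 0.11), Prdm1 (1.04 ± 0.19), Fosl2 (0.66 ± 0.08) and Adam8 (0.33 ± 0.05). In Cebpb siRNA cells 10 rose, against 2.83% of all genes, and limma called none lower, against 2.64% (10 list genes were lower at an unadjusted p under 0.05, a level that 19.4% of all genes reached in either direction). Among those that rose were Prdm1 (1.30 ± 0.19), Fos (0.87 ± 0.11), Fosl2 (0.69 ± 0.08) and the integrin subunit Itgav (0.56 ± 0.11). None of the 76 was called by limma for the difference between the isoproterenol effects, and 9 had an unadjusted p under 0.05, against 6.4% of all genes.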

How the data were processed

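RNA of 16 RAW 264.7 libraries was sequenced from the 3′ end with the Lexogen QuantSeq FWD kit, per the labels' protocols. Per the submitters' processing notes, STAR 2.5.3a and the build GRCm38 were used. No source used here gives the counting tool or its use of strand, so reads of a gene and an overlapping antisense gene cannot be told apart. The dose and duration of isoproterenol and the siRNA sequence are likewise not given there.

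The authors deposited log2 values. They proved to be log2 RPM, with 1 RPM or less listed as 0: multiplying back gave whole reads within 0.1 read for 100.0% of listed values.

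Scaling between libraries used trimmed mean log ratios (30% cut from the ratios and 5% from the levels), and all libraries got a common floor of log2 0.12. Genes that passed it in 4 or more libraries were fitted in limma 3.58.1 (R 4.3.3, trend and robust), with group and experiment as terms over all 16 libraries, after the fit was tested on simulated data. The threshold was a Benjamini-Hochberg adjusted p of 0.05. Errors of RPM are SDs of unscaled values, and errors of log2 fold changes are SEs. The libraries were taken as biological replicates, as the series design calls them; chi-square per degree of freedom within pairs of replicates was 5.28 to 15.5. Replicate numbers did not pair libraries: of 12 correlations of same-numbered deviations, from −0.19 to 0.23, 1 was over 0.1.

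The genes, lists, rule for named genes and 7-base word were chosen with earlier results of these data known. Named are the 10 genes, up to 4 genes of each list by smallest adjusted p for the siRNA, list genes called for isoproterenol, and for each detected gene the 2 most alike in pattern; 1 list gene is not reported here. Alternatives were other scaling, filters, a pseudocount, other terms, single experiments and leaving out each library.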

Additional observations from a re-analysis of the deposited data

Results flagged for a closer look

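The effect of Cebpb siRNA on Mmp9 was larger in experiment 2 than in experiment 1, by log2 0.87 ± 0.13 without isoproterenol and by 0.76 ± 0.13 with it, and the test of the difference between the experiments passed in both settings (limma adjusted p = 0.00673 and 0.0321). The control siRNA libraries of experiment 2 held 77.8 and 96.7 RPM of Mmp9 against 154 and 138 in experiment 1, whereas all 4 Cebpb siRNA libraries lay between 171 and 187. No library stood apart from the other 3 of its group by Dixon's criterion (0.829) in any of 32 groups checked. The criterion takes the 4 libraries as 1 population, for which chance gives about 1 in 20. Each group pooled 2 experiments, which differed in level for Car2, Mmp9, Nfatc1 and Spp1. For these genes that rate does not hold, and the check could miss a library that stood apart.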

How the results depend on the processing

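The counts of osteoclast genes called with Cebpb siRNA, 6 without and 5 with isoproterenol, stayed at 5 to 6 under the alternatives run, and at 6 and 5 without any 1 library. Of 714 values of single genes under alternatives, 689 kept direction and side of the threshold, 10 lost and 14 gained a call, and 1 reversed: Mmp9 with isoproterenol was −0.22 (adjusted p = 0.0128) in experiment 1 alone and 0.54 (0.00267) in experiment 2 alone.

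For isoproterenol in control siRNA cells the count of 1 was 2 on values as deposited, 3 in experiment 1 alone and with only the 8 libraries of the comparison, and 0 without the experiment term, in limma without trend or robust estimation, and in experiment 2 alone. Without 1 library it was 0 to 1. In Cebpb siRNA cells the count of 0 was 1 on values as deposited (Tnfrsf11a, adjusted p = 0.0221), and 0 to 1 without 1 library (Tnfrsf11a, 0.0139 without experiment 2 Cebpb siRNA replicate 2). For the difference the count of 0 was 1 in experiment 1 alone (Mmp9, −0.56, 0.0396), and 0 to 1 without 1 library: Spp1 passed without experiment 1 Cebpb siRNA replicate 1 (0.048) or experiment 2 Cebpb siRNA replicate 1 (0.0481) or 2 (0.00798). With experiment by replicate as a replicate block it was 1 (Spp1, −0.64, 0.0321), and the block changed no other call. The causes were not tested.

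Over all genes, isoproterenol calls in control siRNA cells numbered 179, against 46 without the experiment term, 112 without trend or robust estimation, 108 and 19 in experiments 1 and 2 alone, 412 with only 8 libraries and 99 to 138 without 1 library. In Cebpb siRNA cells 605 became 197 without the experiment term, 250 and 145 in the single experiments and 252 with 8 libraries, and for the difference 25 became 10, 12 and 2. On values as deposited 84.3% of the isoproterenol calls in control siRNA cells and 74.8% of those in Cebpb siRNA cells were higher, against 72.1% and 51.7%. Levels at or under 1 RPM could not be compared.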
